A study of Mus musculus with 2 samples.

Results

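The cells described here are fetal liver cells with few counts of the cKit, CD71 and Ter119 antibodies and few hepatocyte transcripts. They numbered 466 of the 7863 cells in the data, or 5.93%, and are called cKit-low cells below. They were chosen by measured values. Of the 7863 cells, 7355 had 300 to 5000 genes and at most 9% mitochondrial UMIs (unique molecular identifiers, counts of single captured transcripts). Of these, 6508 had CD11b, CD41, Ly6G/6C, CD45R and CD3e antibodies (the lineage antibodies) adding up to no more than 95 counts, 3191 of those had at most 24 Ter119 counts, and 1516 of those had at most 233 CD71 counts. The cKit antibody was under 200 counts in 623 of them. A further 110 were left out because Afp, Apoa1 and Rbp4 made up 1% or more of their UMIs, 3 because of 5 or more Pf4 UMIs, and 44 because of 10 or more UMIs of the granule genes Mpo, Elane, Prtn3 and Ctsg. None of the values named in this paragraph is a finding about the cells it chose.

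The cells came from pooled fetal livers of C57BL/6 mouse embryos at e13.5, without any further treatment or genetic change named in the labels. Cells bearing Ter119 were depleted and then mixed back, so the shares of cell types are not those of the tissue. The data are 1 library of transcripts and 1 library of antibody barcodes from the same cells, and all 7863 cell barcodes were present in both. With 1 library there are no replicates, so no test was run, and the 95% intervals below (exact Poisson for CPM, exact conditional for ratios, Clopper-Pearson for shares) cover counting error only, not the spread between cells or embryos.

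In the fetal liver, red cell precursors pass from progenitors that carry the stem cell factor receptor cKit to cells that carry the transferrin receptor CD71 and then Ter119, a surface marker of red cells. Kit signalling supports early progenitors, and CD71 brings in the iron that heme synthesis needs. Progenitors of other blood lineages also carry cKit, while macrophages, stromal cells and hepatocytes of the liver do not. A cell with low counts of all these antibodies can therefore be of several kinds.

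Each antibody carried a short DNA barcode that was read along with the transcripts. The barcodes of the 3 antibodies that placed the cells, and of CD44, the adhesion receptor whose antibody the choice of cells did not use, are shown because the comparisons of surface counts below rest on them. All their letters are in capitals because the whole run is the barcode.
cKit: AAGCGCTTGGCA
CD71: CGAAGAAGGAGT
Ter119: GAGGCGATTGAT
CD44: GTCTAGACTTCG

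The cKit-low cells were compared with 780 cells that met all the other limits with 200 or more cKit counts (cKit-high) and with 1663 lineage-low, Ter119-low cells with more than 233 CD71 counts (CD71-higher). The same 466 cells entered both comparisons. The 111 cells that passed the lineage, Ter119 and CD71 limits but carried the hepatocyte genes served as a background for blood cell transcripts in cells that should lack them, and 3304 lineage-low cells with more Ter119 gave the level at later stages. The CD71-higher and Ter119-higher groups were also kept to the limits on hepatocyte, Pf4 and granule genes.

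The cKit-low cells were shallow. Their median depth was 4345 UMIs (lowest 2512, highest 22276), against 7911.5 in cKit-high cells and 10244 in CD71-higher cells, and their median gene count was 1839.5 against 2634.5 in cKit-high cells. The group totals were 2329833 UMIs in cKit-low, 6947665 in cKit-high and 17112375 in CD71-higher cells. The median mitochondrial share was 3.75% in cKit-low and 4.41% in cKit-high cells, and the median share of globin UMIs was 0.868% and 0.796%. The mitochondrial share was thus no higher in the shallow group. Among the cKit-low cells 1 was called a doublet, and 2 of the cKit-high cells were. Called doublets were kept in the groups.

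They also carried few antibody counts in total, though their median CD71 count of 103 was above the 74.5 of cKit-high cells. The 10 antibodies gave a median of 294 counts per cKit-low cell, 802.5 per cKit-high cell and 1145 per CD71-higher cell. The 10% of all kept cells with the fewest antibody counts, those under 367, held 331 of the 466 cKit-low cells (71%, interval 66.7 to 75.1%), 9 of the 780 cKit-high cells and 106 of the 111 hepatocyte-gene cells. Upper limits on several antibodies favour such cells. The CD44 antibody, which set no limit, had a median of 60 counts (quartiles 39 and 96) in cKit-low cells and 222.5 (153.75 and 310) in cKit-high cells, so the quartiles did not overlap. The IgG control had a median of 0 in both groups.

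**Figure D1:**
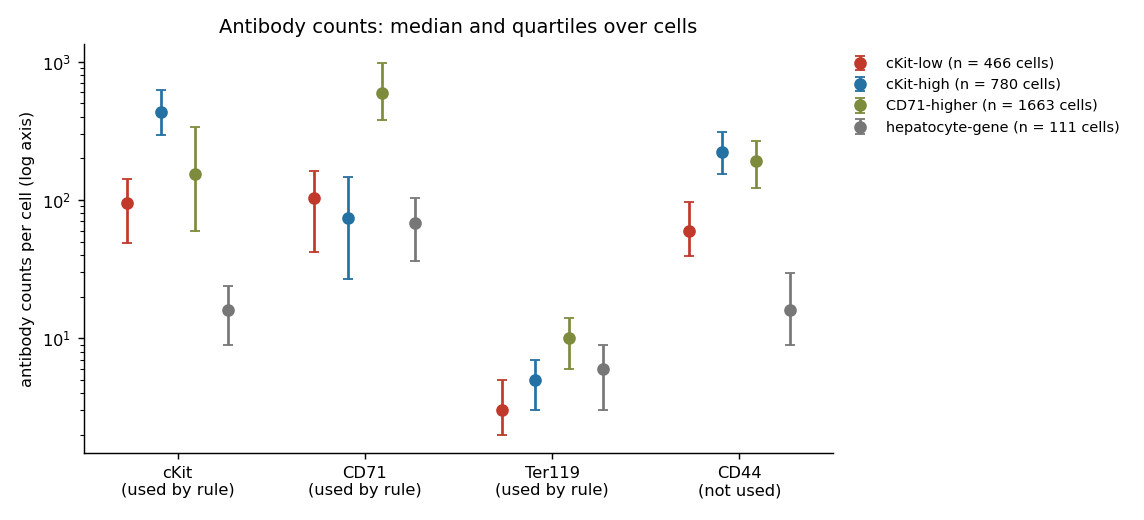
Counts per cell (log axis) of the cKit, CD71, Ter119 and CD44 antibodies in 4 groups of cells; points are medians over cells and bars the lower and upper quartiles. CD44 counts had a median of 60 in cKit-low and 222.5 in cKit-high cells although CD44 set no limit.

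The Cd44 transcript did not show a difference of that size. Cd44 (chr2:102811141-102901669, minus strand, GRCm38.p6, RefSeq, as all positions here) was at 58.8 CPM (UMIs of the gene per 1e6 UMIs, pooled over the cells of a group) in cKit-low and 58.1 CPM in cKit-high cells, a ratio of 1.01 (interval 0.827 to 1.23). Among cells within the quartiles of cKit-low depth, 3388.75 to 5844 UMIs, the median CD44 antibody count was 58 in 232 cKit-low cells and 157 in 207 cKit-high cells. As a share of all antibody counts, CD44 made up 24.2% and 28.4% in these cells. That total included the cKit and CD71 counts, which the choice of cells limited, so the choice set this share in part. In this range without the cells set aside below, the Cd44 transcript was at 56.5 CPM in cKit-low and 69.4 CPM in cKit-high cells, a ratio of 0.814 (0.557 to 1.19). In cells of 6000 to 8000 UMIs, with those cells kept in, the order turned, at 75.8 against 53.5 CPM, and the intervals overlapped.

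Kit, the transcript of the cKit receptor, was lower in the cells with low cKit antibody. The gene is at chr5:75574987-75656722 (plus strand). Its level was 40.8 CPM (33 to 49.8) in cKit-low and 74 CPM (67.7 to 80.7) in cKit-high cells, a ratio of 0.551 (0.438 to 0.687), while the median cKit antibody count was 94.5 against 435.5. CD71-higher cells were at 24.7 CPM, and hepatocyte-gene cells had 1 of 111 cells with a Kit UMI. Of the cKit-low cells 17.4% had a Kit UMI, or 8.58% after each cell was thinned to 2000 UMIs, against 15.1% of the thinned cKit-high cells and 0 of 111 thinned hepatocyte-gene cells, whose interval reached 3.27%. No cell was shallower than 2000 UMIs. Tfrc, the transcript of CD71 (chr16:32608896-32632794, plus strand), was at 140 CPM in cKit-low, 94.6 CPM in cKit-high and 190 CPM in CD71-higher cells. Its order among the 3 groups was that of their median CD71 antibody counts, 103, 74.5 and 599, which the choice of cells had set in part.

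Most cKit-low cells carried erythroid transcripts. Gata1, the transcription factor of the erythroid lineage, was at 167 CPM in cKit-low, 161 CPM in cKit-high and 193 CPM in CD71-higher cells, and at 4.97 CPM in hepatocyte-gene cells. Klf1, the factor that drives adult globin genes, was at 362, 350 and 576 CPM in the same 3 blood cell groups, and Epor, the erythropoietin receptor, at 118, 103 and 154 CPM. For these 3 genes the cKit-low and cKit-high levels had overlapping intervals. Of the cKit-low cells, 358 of 466 (76.8%, 72.7 to 80.6%) had 5 or more UMIs summed over Gata1, Klf1, Epor, Car2 and Blvrb, against 614 of 780 cKit-high cells (78.7%) at greater depth. The same sum was reached by 27 of 111 hepatocyte-gene cells (24.3%) at a median of 11839 UMIs.

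Afp, Apoa1 and Rbp4 set the limit on hepatocyte genes, so their low level is given only as a description. Afp, the fetal serum protein, was at 84.1 CPM in cKit-low and 30498 CPM in hepatocyte-gene cells. Alb, the albumin gene, which set no limit, was at 58.4 CPM in cKit-low, 51.5 CPM in cKit-high and 55.9 CPM in CD71-higher cells. All 10 hepatoblast genes passed the minimum of 50 UMIs, and none was past 2-fold against cKit-high cells, where 0.59% of all genes were higher and 0.229% lower. Against CD71-higher cells 1 was higher, Dlk1, a surface protein of hepatoblasts, at 50.2 against 13.4 CPM, where 1.41% of all genes were. Of its cKit-low UMIs 54.7% lay in 5 cells, and without the cells set aside below none of the 10 was higher.

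The 3 genes given as markers of these cells were lowest in the deepest cells of each blood cell group. Rpgrip1, which encodes a ciliary protein of photoreceptors, was at 533 CPM (503 to 563) in cKit-low and 168 CPM (159 to 178) in cKit-high cells. Supt16, a subunit of the histone chaperone FACT, was at 513 and 235 CPM, and Notch2, a receptor of the Notch pathway, at 94 and 60.2 CPM. In cKit-low cells of 2500 to 4000 UMIs Rpgrip1 was at 767 CPM, and in those over 8000 UMIs at 127 CPM. In cKit-high cells the same bins gave 574 and 71.4 CPM, and in CD71-higher cells 520 and 78.6 CPM. Supt16 went from 546 to 326 CPM and Notch2 from 106 to 45.5 CPM between the same bins of cKit-low cells. For Rpgrip1 the shallow cells of each group were thus several-fold above the deep cells, a wider range than that between the groups within a bin. In hepatocyte-gene cells Rpgrip1 was at 151 CPM in 12 cells of the lowest bin and 20.8 CPM in 68 cells of the highest.

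At matched depth none of the 3 genes was 2-fold higher than in cKit-high cells. With cells kept to 3388.75 to 5844 UMIs and the 30 cells described below left out, Rpgrip1 was at 693 CPM in cKit-low and 522 CPM in cKit-high cells, a ratio of 1.33 (1.18 to 1.5). Supt16 was at 609 and 490 CPM, a ratio of 1.24 (1.1 to 1.41). Notch2 turned its direction, from a ratio of 1.56 (1.32 to 1.84) over all cells to 0.676 (0.525 to 0.869) in these cells. Against CD71-higher cells at this depth, Rpgrip1 and Supt16 had ratios of 1.35 (1.21 to 1.5) and 1.15 (1.03 to 1.28), and Notch2, at 113 against 45.3 CPM, had one of 2.49 (1.83 to 3.42). The differences in Rpgrip1 and Supt16 were thus much smaller between cells of like depth, and the cells are named here by their antibody limits. Rpgrip1 (chr14:52104241-52161339, plus strand) and Supt16 (chr14:52160419-52197239, minus strand) are neighbours. Their ends overlap by 921 bases, so reads there can be split between them unless counting used the strand, which is not given in the sources used here. Notch2 is at chr3:98013538-98150367 (plus strand).

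**Figure D2:**
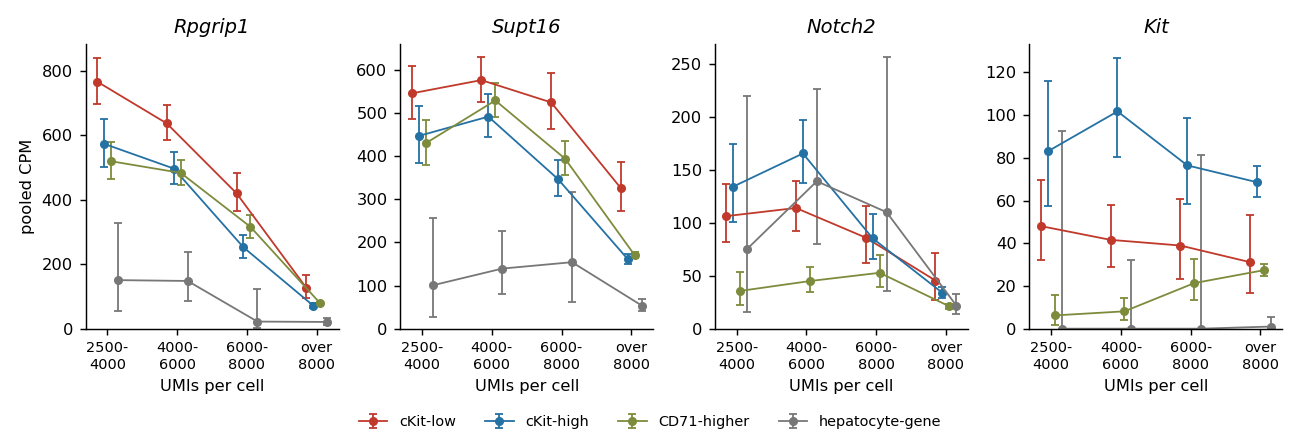
Pooled CPM of Rpgrip1, Supt16, Notch2 and Kit in 4 groups of cells, by UMIs per cell; bars are exact 95% Poisson intervals. Rpgrip1 was at 767 CPM in the shallowest and 127 CPM in the deepest cKit-low cells, and likewise higher in the shallow cells of the other groups, while Kit was lower in cKit-low than in cKit-high cells in each bin.

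Ssrp1, the other subunit of FACT, was at 352 CPM in cKit-low and 337 CPM in cKit-high cells (ratio 1.04, 0.962 to 1.13). Of 12 FACT and histone chaperone genes, all passed the UMI minimum and 1, Supt16 itself, was 2-fold higher, against 0.59% of all genes. The receptor Notch1, under the UMI minimum at matched depth, was at 9.87 and 4.17 CPM over all cells (ratio 2.37, 1.31 to 4.23), with 56.5% of its 23 cKit-low UMIs in 5 cells. The 5 Notch ligands summed to 1.72 and 1.15 CPM, and none of the 7 Notch mediators and targets that passed the minimum was past 2-fold. Rbpj, the nuclear partner of the cleaved receptors, was at 26.2 and 23.3 CPM.

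Against the cKit-high cells, 8302 genes had at least 50 UMIs over both groups. Of these, 49 (0.59%) were at least 2-fold higher in cKit-low cells and 19 (0.229%) at least 2-fold lower, on the scale of pooled CPM plus 10. The median log2 ratio over all 8302 genes was -0.04. Many of the highest genes rested on a handful of cells. For 16 of the 49 genes, more than 50% of the UMIs lay in 5 of the 466 cells, and the median of that share was 37.6%, against 15% over all genes tested. With the 30 cells below left out, along with 9 of the cKit-high cells, 26 of 8222 genes (0.316%) were higher and 27 (0.328%) lower. Of the 49 genes, 24 were still past 2-fold, and so were all 19 lower genes.

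The highest gene was Hbb-y, an embryonic β-like globin gene of the first, yolk sac derived red cells (chr7:103851754-103853207, minus strand). It was at 3809 CPM in cKit-low and 144 CPM in cKit-high cells. In 5 cells it had 5 or more UMIs, and these held 8543 of the 8874 Hbb-y UMIs of the group (96.3%). The counts of the 5 cells were 4669, 2141, 1666, 59 and 8. Hba-x and Hbb-bh1, the other embryonic globin genes, were at 146 and 115 CPM in cKit-low cells against 4.46 and 15.5 CPM in cKit-high cells, and each had 5 or more UMIs in 3 cells. Without the cells set aside below the ratio of Hbb-y was 1.02, which follows from their choice by these genes. An Hbb-y UMI was seen in 48.7% of cKit-low cells but also in 70.3% of the deeper hepatocyte-gene cells, so a single UMI of this gene is at the level of free RNA. After thinning to 2000 UMIs the shares were 28.3% and 24.3%.

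Cdkn1c, a growth-restricting cell cycle inhibitor, Meg3, a long noncoding RNA, and Mest are imprinted genes, and most of their UMIs lay in few cells. Cdkn1c was at 106 CPM in cKit-low and 4.32 CPM in cKit-high cells, with 240 of its 248 UMIs in 7 cells. Meg3 was at 79.4 and 4.03 CPM, with 171 of 185 UMIs in 7 cells. In all 8 cells carried 5 or more UMIs of one of the 2 genes, and 6 carried that many of both. Those 8 cells had 6 Gata1 UMIs in total. Of these 8 cKit-low cells, 4 also had 10 or more UMIs of the stellate and mesenchymal genes, such as the collagen gene Col3a1. Hepatocyte-gene cells also held both imprinted genes, at 916 CPM of Cdkn1c and 2907 CPM of Meg3. Serpinh1, a collagen chaperone, at 30 CPM against 0.864 CPM, and Ptn, a secreted growth factor, at 20.2 against 0.72 CPM, had 77.1% and 97.9% of their UMIs in 5 cells. Mest was at 42.9 against 2.45 CPM, with 92 of its 100 UMIs in 8 cells. The cell set aside for endothelial genes had 22 of these and no UMI of Cdkn1c or Meg3.

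Cells with 10 or more UMIs of the genes of any cell type counted in this paragraph were 30 cKit-low cells, 6.44% of the group. They were 9 of 780 cKit-high cells (1.15%) and 13 of 1663 CD71-higher cells (0.782%). The granulocyte progenitor, megakaryocyte, lymphoid (T, NK and innate), dendritic cell, mast cell and stem cell lists were not counted in this way. Egfl7, Slc40a1 and Psap, which the erythroid groups also express, were left out of these counts after their values were seen. Monocyte genes, such as Ccr2 and Csf1r, gave 18 cells (3.86%, 2.31 to 6.04%) with a median of 31 CD11b antibody counts and 140.5 CD44 counts. Macrophage genes gave 3 cells, which held 83.8% of that list's UMIs, all 42 UMIs of the complement gene C1qb among them. Their CD44 counts were 312, 317 and 358. The primitive erythroid genes gave 5 cells, the mesenchymal genes 4, the B lineage genes 2 and the endothelial genes 1, and all 3 macrophage cells were also counted as monocyte. These 30 cells are called the cells set aside. They are not all the cells with few erythroid transcripts. They held 20 of the 47 cells of sub-cluster 5 and 5 of the 59 cells of sub-cluster 4, described below. In these sub-clusters 3 and 20 cells had 5 or more UMIs of the erythroid genes summed above. Comparisons without the cells set aside therefore still held cells of this kind. Of the 4 genes left among the 15 highest, Id2 and Id3, inhibitors of DNA-binding factors, were at 87.1 against 11.9 CPM and 52.8 against 8.64 CPM. Ms4a6c, a monocyte gene, was at 20.6 against 1.01 CPM, and Lgmn, a lysosomal protease, at 27.9 against 3.74 CPM. At matched depth without the cells set aside Id2 was at 62.6 and 44.5 CPM, so its ratio went from 7.29 to 1.41 (0.933 to 2.15) and was no longer past 2-fold. The other 3 were under the UMI minimum there, with ratios of 1.89 (0.911 to 4.16) for Id3, 2.37 (0.388 to 24.9) for Ms4a6c and 2.84 (0.981 to 9.99) for Lgmn.

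Over all cells the summed genes of several other cell types were higher in cKit-low than in cKit-high cells, but not all of these differences held at matched depth. Monocyte genes summed to 337 and 165 CPM over all cells, with 4 of 7 tested genes 2-fold higher (all genes 0.59%, also for the lists below), and to 376 and 330 CPM (ratio 1.14, 0.98 to 1.33) at matched depth with the cells set aside kept in, where 0 of 4 were higher and 1 was lower (all genes 0.696% and 0.992%). Without those cells, which these genes had helped to choose, the order at matched depth turned, to 161 and 256 CPM (0.63, 0.511 to 0.774). Macrophage genes summed to 146 and 34.3 CPM with 3 of 4 higher, and at matched depth with those cells kept in to 152 and 38.3 CPM, where the 1 gene tested was not 2-fold higher. Mesenchymal genes summed to 108 and 6.48 CPM, none with enough UMIs to be tested, and 4 cells held 85.3% of their cKit-low UMIs. Without the cells set aside, which these genes had helped to choose, they summed to 15.1 and 6.39 CPM (ratio 2.36, 1.46 to 3.79). T, NK and innate lymphoid genes, which did not choose the cells set aside, summed to 114 and 40.3 CPM with 1 of 2 higher, and to 87.8 and 34.3 CPM without those cells. At matched depth with those cells kept in they summed to 115 and 113 CPM. Granulocyte progenitor genes, some of which had a limit, summed to 676 and 883 CPM. Calr alone gave 442 and 493 CPM of these sums and was at 1018 CPM in hepatocyte-gene cells. Sums of this list, also in the sub-clusters below, are thus not a measure of granule genes alone.

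**Figure D3:**
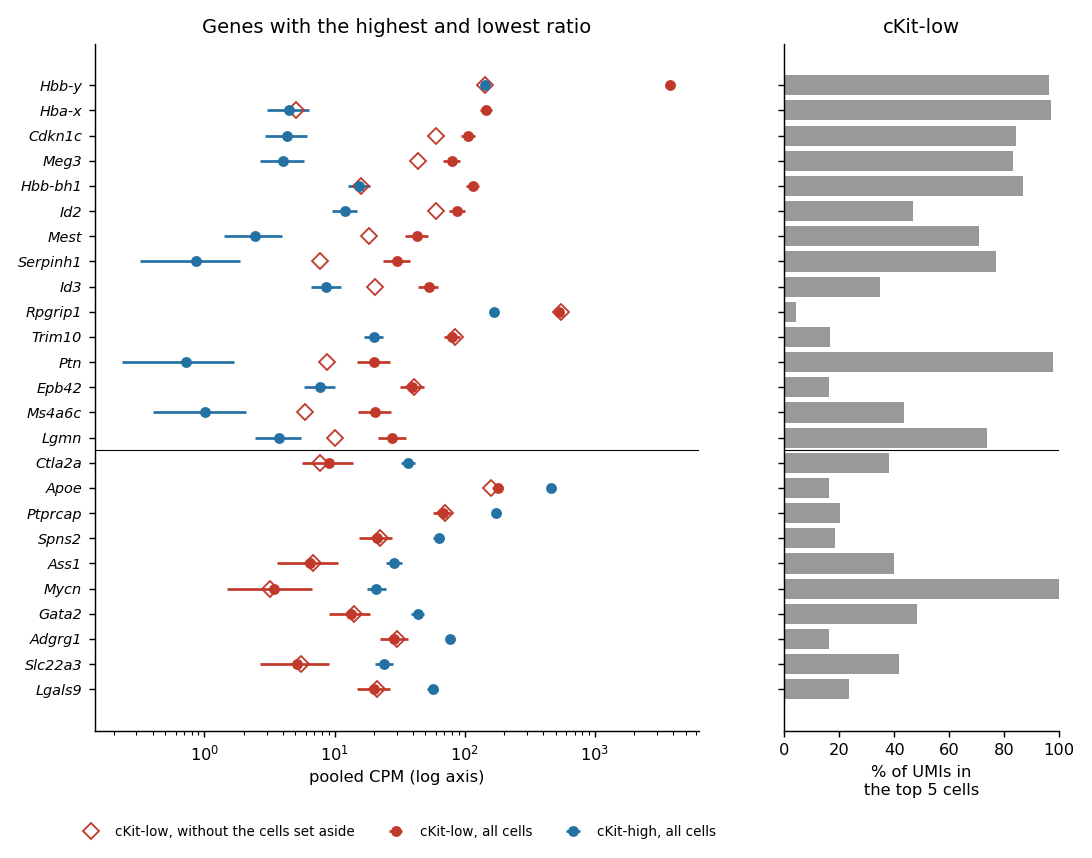
Left, pooled CPM (log axis) with 95% Poisson intervals of the 15 genes highest and the 10 lowest in cKit-low over cKit-high cells, and the cKit-low level without the 30 cells set aside; right, the percent of each gene's cKit-low UMIs in the 5 cells that had most. Hbb-y, which helped to choose those cells, dropped to the cKit-high level without them, while Rpgrip1, Trim10 and Epb42 did not move toward it.

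Other higher genes were spread over many cells. Of those named here Rgcc and Cd24a were chosen after their values were seen. Rgcc, a cell cycle regulator, was at 667 CPM in cKit-low and 268 CPM in cKit-high cells, with a UMI in 74.2% of cKit-low cells, and Cd24a, a surface glycoprotein, at 701 and 324 CPM in 79.4% of cells. Fech, the last enzyme of heme synthesis, was at 337 and 162 CPM. Trim10, needed for late red cell development, was at 80.3 and 20 CPM, and Epb42, a protein of the red cell membrane skeleton, at 39.5 and 7.77 CPM. All 5 stood at 2.08-fold to 5.08-fold over all cells.

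Of these genes 4 could be tested at matched depth without the cells set aside, and Epb42 had too few UMIs there. The ratio was 3.35 (2.87 to 3.92) for Rgcc, 2.38 (2.07 to 2.74) for Cd24a, 2.44 (1.97 to 3.04) for Fech and 4.81 (2.63 to 9.5) for Trim10. In that comparison of 219 with 203 cells, 4608 genes passed the minimum, 34 (0.738%) were higher and 74 (1.61%) lower. Of the 49 genes higher over all cells, 23 were tested in that comparison and 10 were past 2-fold. With the cells set aside kept in, 33 of 4740 genes (0.696%) were higher and 47 (0.992%) lower at this depth. Other genes among the highest, named after their values were seen, were Rhd, a blood group protein (ratio 3.66, 2.55 to 5.38), Hemgn, an erythroid nuclear protein (3.25, 2.29 to 4.69), and Uros, a heme synthesis enzyme (3.6, 2.01 to 6.84).

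The erythroid factors Klf1 and Gata1 were higher in cKit-low cells at matched depth without the cells set aside, with intervals above 1. There Klf1 was at 389 CPM in cKit-low and 216 CPM in cKit-high cells (ratio 1.8, 1.51 to 2.15), against a ratio of 1.03 (0.954 to 1.12) over all cells. Gata1 was at 173 and 120 CPM (1.43, 1.12 to 1.84), and Car2, a carbonic anhydrase of red cells, at 1431 and 772 CPM (1.85, 1.69 to 2.03). Of the 12 erythroid progenitor genes, none was 2-fold higher over all cells or at this depth and 2, Car1 and Gata2, were 2-fold lower in both, where 0.229% and 1.61% of all genes were lower. The list summed to 4587 CPM in cKit-low and 3545 CPM in cKit-high cells (ratio 1.29), and at matched depth without the cells set aside to 4538 and 2871 CPM (1.58). The cKit-low sum thus changed little, and the wider ratio lay mostly on the cKit-high side, of which the depth limit kept the shallower cells. Its median log2 ratio over all cells was 0.19.

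Of 12 late erythroid genes, 6 were at least 2-fold higher and none lower over all cells, with a median log2 ratio of 0.95, where 0.59% of all genes were higher. At matched depth 8 passed the minimum and 2 were higher, both with the cells set aside (0.696% of all genes) and without them (0.738%). The adult globin Hba-a1 was at 2439 CPM in cKit-low and 1008 CPM in cKit-high cells, and Hbb-bs at 7719 and 4369 CPM, and 26.3% and 27.5% of their cKit-low UMIs lay in 5 cells. Reads of Hba-a1 and its near-identical copy Hba-a2 can be split between them, so the level of each is uncertain. Hepatocyte-gene cells held 981 CPM of Hba-a1 and 4332 CPM of Hbb-bs, so the cKit-high levels of both were near that of free RNA.

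Genes of earlier progenitors were among the lower ones. Gata2, a factor of stem cells and progenitors, was at 13.3 CPM in cKit-low and 43.6 CPM in cKit-high cells (ratio 0.305, 0.204 to 0.442). Mycn, a transcription factor of the Myc family, was at 3.43 and 21 CPM, and all its 8 cKit-low UMIs lay in 5 cells. Apoe, a lipid carrier, was at 181 and 459 CPM, Ptprcap, a partner of the leukocyte phosphatase CD45, at 67.8 and 175 CPM, and Adgrg1, an adhesion receptor of stem cells, at 28.8 and 77.9 CPM. Ctla2a, Spns2, a transporter of sphingosine-1-phosphate, Ass1, a urea cycle enzyme, Slc22a3, an organic cation transporter, and Lgals9, a lectin, completed the 10 lowest genes, with ratios of 0.214 to 0.354. Of 12 stem and multipotent progenitor genes, 9 passed the minimum and 1, Mycn, was 2-fold lower, against 0.229% of all genes. That list summed to 158 CPM in cKit-low and 307 CPM in cKit-high cells.

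The difference in progenitor genes was wider at matched depth without the cells set aside. Gata2 was at 6.16 CPM in cKit-low and 68.3 CPM in cKit-high cells (ratio 0.0902, 0.0319 to 0.207), the surface sialomucin Cd34 at 18.5 and 87.8 CPM (0.21, 0.119 to 0.354), and Sox4, a progenitor transcription factor, at 28.8 and 127 CPM (0.227, 0.144 to 0.345). Over all cells the ratio of Cd34 had been 0.866 (0.677 to 1.1). Apoe was at 114 and 489 CPM. The stem and multipotent progenitor list summed to 143 and 495 CPM (ratio 0.289, 0.237 to 0.35), and 3 of its 4 genes that passed the minimum were 2-fold lower, against 1.61% of all genes. With the cells set aside kept in, the sums were 170 and 493 CPM (ratio 0.345) and 2 of 4 genes were lower, against 0.992% of all genes. The cKit-high level itself changed with the depth limit, which left 203 of the 780 cKit-high cells without those set aside. Over all depths the list summed to 158 CPM in cKit-low and 307 CPM in cKit-high cells. Gata2 was at 107 CPM in cKit-high cells of 2500 to 4000 UMIs and at 34.3 CPM in those over 8000.

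The 12 S phase genes summed to 2164 CPM in cKit-low and 2017 CPM in cKit-high cells (ratio 1.07, 1.04 to 1.11) and the 12 G2 and mitosis genes to 2325 and 2283 CPM (1.02, 0.987 to 1.05). No gene of either list was past 2-fold, where 0.59% of all genes were higher and 0.229% lower. At such shares most lists of 12 genes would hold none. At matched depth without the cells set aside the ratios were 1.31 (1.23 to 1.41) and 1.18 (1.11 to 1.26).

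Along the cKit antibody count, Car2 was highest and Kit and Gata2 were lowest in the cells with the fewest counts. The 466 cKit-low and 780 cKit-high cells, without the cells set aside, were put in 8 bins by that count. The lowest bin, of 0 to 62 counts, held 137 cells and the highest, of 663 to 1736 counts, held 157. From the lowest to the highest, Kit was at 24.2, 38.6, 60.5, 75.8, 75.5, 70.4, 59.2 and 86.1 CPM, so its level was lower in the first 2 bins and showed no order in the last 5. Gata2 was at 1.61, 22.1, 16.6, 29.2, 44.6, 32.7, 54 and 45.1 CPM. Car2 was at 2402, 1521, 1204, 1345, 1064, 1106, 999 and 955 CPM. Klf1 lay between 319 and 437 CPM, with its highest level in the lowest bin and no order in the others. Median depth went from 4011 to 12586 UMIs and the median CD44 antibody count from 36 to 364 over the same bins, and the part of depth in these differences was not tested.

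**Figure D4:**
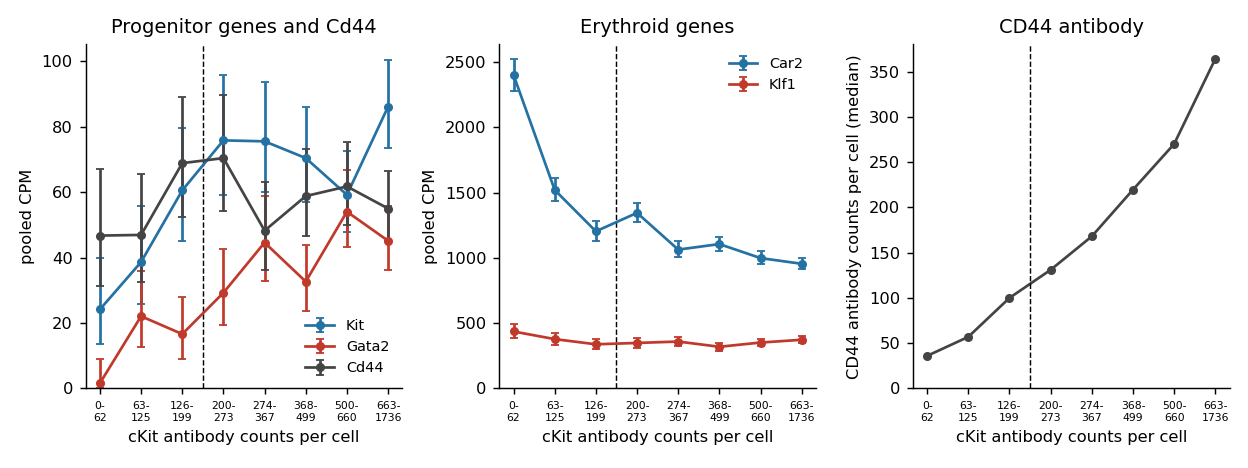
Pooled CPM (95% Poisson intervals) of 5 genes and the median CD44 antibody count in 8 bins of the cKit antibody count over cKit-low and cKit-high cells, the dashed line marking the limit of 200. Car2 went from 2402 CPM in the lowest bin to 955 CPM in the highest, while the CD44 antibody went from 36 to 364.

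At the cKit limit, the 105 cKit-low cells with 150 to 199 cKit counts had Kit at 63.3 CPM and Car2 at 1159 CPM, and the 108 cells just outside, with 200 to 250 counts, had 79.8 and 1123 CPM. At the CD71 limit, the 92 cells inside with 175 to 233 counts had Car2 at 2037 CPM, and 81 cells outside with 234 to 291 counts had 2651 CPM. The other limits had few cells near them. For Ter119, 8 cells lay at 19 to 24 counts and 2 at 25 or 26.

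The 466 cells fell into 7 sub-clusters by their transcripts. Sub-clusters 1, 2, 3 and 7 held 327 cells (70.2%). Among them Kit was between 23.5 and 99.4 CPM and Rpgrip1 between 315 and 890 CPM, lowest in sub-cluster 3 and highest in sub-cluster 2. Sub-cluster 1, with 122 cells, was led by Arhgdig at 107 CPM against 32.8 CPM in the other members. Sub-cluster 2, with 94 cells, was led by Kit at 99.4 CPM against 28.5 CPM and had a median cKit antibody count of 126. Sub-cluster 3, with 78 cells, was led by Acp5 at 186 CPM against 71.5 CPM, had the asparagine synthetase gene Asns at 317 CPM and the lowest cKit median of these 4, 57.5. Sub-cluster 7, with 33 cells, was led by Icam2, found in 7 cells. In sub-clusters 1, 3 and 7, 97.5%, 100% and 97% of the cells had 5 or more UMIs of the 5 erythroid genes, and in sub-cluster 2, whose median depth was 4045 UMIs, 77.7% had. None of the 4 had 3 markers of a list among its 10 leading genes, so they were left unnamed.

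Sub-cluster 6, with 33 cells, had the highest globin levels, with 2843 of the 5682 Hba-a1 UMIs and 7583 of the 17985 Hbb-bs UMIs of the group. Among its leading genes were Hbb-y, Hba-x, Hbb-bh1, Alas2, the first enzyme of heme synthesis in red cells, Hba-a1, Hbb-bt, Hba-a2 and Hbb-bs. Hba-x was found in 3 of its cells, and 99.8% of its Hbb-y UMIs lay in 5. The 29 cells left after the 4 set aside had Hbb-y at 193 CPM, against 141 to 158 CPM in sub-clusters 1, 2, 3 and 7, Hbb-bs at 64062 CPM and Car2 at 5227 CPM. A few cells carried the pooled Hbb-bs level, since 65.2% of the Hbb-bs UMIs of the sub-cluster lay in 5 cells and the median share of globin UMIs in the 29 cells was 3.77%. They had no Kit UMI, with an interval up to 32.3 CPM, and a median of 6 Ter119 antibody counts.

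Sub-cluster 5, with 47 cells, had the fewest cells with erythroid genes, 3 of 47 with 5 or more UMIs of the 5. It was led by Lsp1, an actin-binding protein of leukocytes, at 809 CPM against 4.25 CPM in the other members, the transcription regulator Id2, Plac8, at 2157 against 61.3 CPM, Coro1a, a leukocyte actin regulator, and Tmsb4x. Spi1, the myeloid and lymphoid factor PU.1, was at 505 CPM, and Gata1 had 3 UMIs. The cells had a median of 24 CD11b and 136 CD44 antibody counts. Monocyte genes summed to 2680 CPM, granulocyte progenitor genes to 1381 CPM, macrophage genes to 1047 CPM, and T, NK and innate lymphoid genes to 1033 CPM. Stem and multipotent progenitor genes summed to 633 CPM, dendritic cell genes to 419 CPM and B lineage genes to 276 CPM. Cd34 was at 281 CPM and Mpo at 124 CPM. Of the cells in this sub-cluster, 20 were among those set aside. No list had 3 markers among the leading 10, so the sub-cluster was left unnamed.

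Sub-cluster 4, with 59 cells, was mixed. It was led by Cdkn1c, Meg3, Mest and Serpinh1, each seen in 8 to 10 of its cells, and 5 of its cells were among those set aside. Mpo was at 114 CPM, Cd34 at 106 CPM and Gata2 at 99 CPM, above the 0 to 9.94 CPM of Gata2 in the other sub-clusters. Granulocyte progenitor genes summed to 1448 CPM, stellate and mesenchymal genes to 935 CPM and megakaryocyte genes to 730 CPM, the highest sums of these lists among the 7 sub-clusters. Hepatoblast genes summed to 661 CPM, against 266 to 379 CPM in the other sub-clusters, and Dlk1 alone gave 293 CPM of this, with 83.1% of its UMIs in 5 cells. The median CD71 antibody count was 14, and 20 of the 59 cells had 5 or more UMIs of the 5 erythroid genes.

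**Figure D5:**
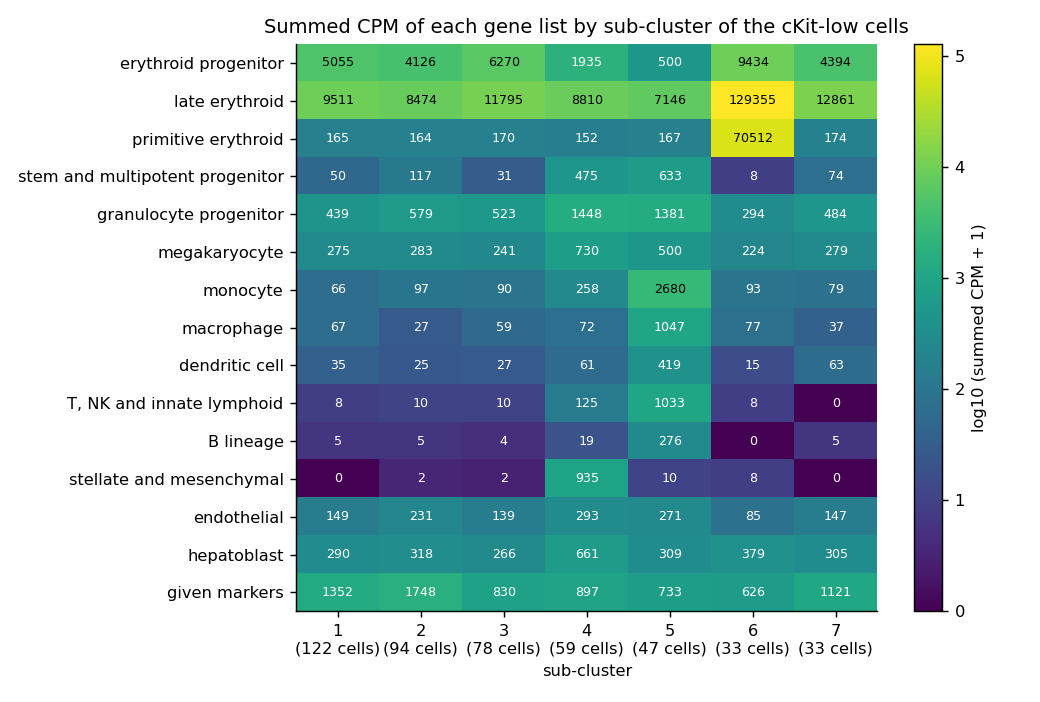
Summed CPM of 15 gene lists in the 7 sub-clusters of the cKit-low cells; colour is log10 of the summed CPM plus 1 and the printed value is the summed CPM. Erythroid progenitor genes summed to 4126 CPM or more in sub-clusters 1, 2, 3, 6 and 7 and to 500 CPM in sub-cluster 5, where monocyte genes summed to 2680 CPM.

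Against the CD71-higher cells, 8914 genes passed the minimum, 126 (1.41%) were 2-fold higher in cKit-low cells and 4 (0.0449%) lower. Without the cells set aside 73 (0.824%) were higher and 4 (0.0452%) lower. All 10 highest genes were among those that led sub-clusters 4, 5 or 6. Plac8 was at 250 CPM in cKit-low and 15.4 CPM in CD71-higher cells (ratio 16.3, 14.1 to 18.9), Tmsb4x, an actin-binding peptide, at 1778 and 250 CPM, Coro1a at 79.4 and 5.03 CPM, Lsp1 at 76.8 and 2.22 CPM, Id2 at 87.1 and 2.86 CPM, and Vim, an intermediate filament protein, at 74.3 and 5.67 CPM. At matched depth without the cells set aside, the ratio of Plac8 was 7.38 (4.92 to 11.4), that of Tmsb4x went from 7.12 to 2.61, that of Id2 from 30.4 to 19.1 and that of Lsp1 from 34.6 to 16.9, while that of Coro1a went from 15.8 to 20.7 (7.63 to 78.8). Vim, under the UMI minimum there, went from 13.1 to 4.3. Hbb-y, Hba-x, Cdkn1c and Meg3 completed the 10 highest, with 83.2% to 97.1% of their cKit-low UMIs in 5 cells.

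The 4 lower genes held 3 of red cells and Acp5. Slc4a1, the anion exchanger band 3, was at 20.2 CPM in cKit-low and 64.9 CPM in CD71-higher cells (ratio 0.311, 0.227 to 0.416). Hemgn was at 146 and 321 CPM, Acp5, an acid phosphatase, at 96.6 and 211 CPM, and Tmod1, which caps actin filaments of the membrane skeleton, at 12.4 and 35.2 CPM. The cKit-low level of Hemgn and of Acp5 lay between the cKit-high levels of 61.6 and 34.1 CPM and the CD71-higher levels. Fech and Car2 had the same order.

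At matched depth without the cells set aside, 5036 genes passed the minimum, 72 (1.43%) were higher and 56 (1.11%) lower, with a median log2 ratio over all genes of 0.12. With those cells kept in, 103 of 5143 (2%) were higher and 61 (1.19%) lower. Slc4a1 was at 9.24 CPM in cKit-low and 153 CPM in CD71-higher cells. Hbb-bs was at 6436 and 21782 CPM and Fech at 315 and 692 CPM. Of the 12 late erythroid genes 11 were 2-fold lower, against 1 over all cells. The CD71-higher side itself changed with the depth limit, which kept 328 of its 1663 cells. Its late erythroid genes summed to 20132 CPM over all cells and to 47900.5 CPM in the cells kept. In cKit-low cells the sums were 16466 and 13360 CPM, so the wider distance lay mostly on the CD71-higher side. Kit was higher, at 51.3 against 9.86 CPM (ratio 5.21, 2.88 to 9.99), while over all cells it was at 40.8 against 24.7 CPM (1.65, 1.31 to 2.07).

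The cells with the fewest antibody counts were not without erythroid genes. The 331 cKit-low cells with the fewest antibody counts had Klf1 at 364 CPM (334 to 395) and Kit at 44.8 CPM, and the other 135 had 358 CPM (318 to 402) and 33.2 CPM. Of the 248 Cdkn1c UMIs 247 lay in the former, and so did 8740 of the 8874 Hbb-y UMIs.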

How the data were processed

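Per the labels and methods, the transcript library was aligned to mm10 by the authors (Cell Ranger, v2.1.1), and the table they supplied holds UMI counts. Antibody barcodes were tallied by CITE-seq-Count, whose deposited table holds unnormalized counts for 10 antibodies. Collapsing of antibody reads by molecule is not given in the sources used here. Levels are CPM of UMIs pooled over the cells of a group. Genes with at least 50 UMIs over both groups were compared by the ratio of pooled CPM plus 10, and called past 2-fold. The text names genes of the cell limits, of the antibody targets and of fixed lists, and leading genes of sub-clusters. It also names the 15 highest and 10 lowest genes against cKit-high cells, leaving out Gm and Rik predicted genes. Against CD71-higher cells it names the 10 highest on the same terms and the 4 genes past 2-fold lower. Genes named outside this rule are said to be. Members and lists were chosen with earlier results of these data known. The matched-depth comparison and the cells set aside were added after the values were seen. Sub-clusters used 2000 variable genes, 16 principal components, 30 neighbours and Leiden resolution 0.8, and doublets were called with Scrublet at a 6% expected rate. Gene positions are from RefSeq on GRCm38.p6. One gene of the late erythroid list is not reported here. The calculation of the ratio was tested on simulated pooled counts with counting error only. That simulation held no differences between cells or by depth, so it does not cover genes held by few cells. The work used Python 3.11.15, scipy 1.17.1, scanpy 1.11.5 and igraph 0.11.9.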

Additional observations from a re-analysis of the deposited data

Results flagged for a closer look

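The antibody library also held reads that the comparisons did not use. In the cKit-low cells 1813 reads matched no antibody barcode, a median of 3 per cell and 1.26 per 100 antibody reads, against 1.4 in cKit-high and 0.971 in CD71-higher cells. A further 7403 reads in the cKit-low cells were listed under another read structure, 5.13 per 100, against 5.38 and 4.83. Both were noted because they lie above the limit that a count of 0 allows. They were assigned to no antibody, and their source was not tested.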

How the results depend on the processing

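With 1 library no error between embryos can be given, genes under about 50 UMIs rest on few cells, and shallow cells limit what a level near 0 can show. No paired analysis was possible because the result comes from no test and there is 1 library. Of the named genes past 2-fold, those that turned their direction under some alternative were Hbb-y, Hba-x, Cdkn1c and Mest; Notch2, under 2-fold against cKit-high cells, turned in that comparison at matched depth.

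Against cKit-high cells the counts of genes higher and lower, 49 and 19 as reported, were 83 and 52 with the cKit limit at 50% of its value, 26 and 45 without the 10% of cells with fewest antibody counts (135 cKit-low cells left), 117 and 137 with 1 CPM added and 7 and 0 at 4-fold. The count higher was 26 without the cells set aside. The count lower was 2 with the CD71 limit at 50%, 36 as a mean over cells, 47 at matched depth and 74 at matched depth without the cells set aside. Against CD71-higher cells the counts, 126 and 4, were 237 and 58 with the CD71 limit at 50%, 291 and 49 with 1 CPM added, 24 and 0 at 4-fold and 72 and 56 at matched depth without the cells set aside, and the count higher was 73 without those cells. The count lower was 0 with the cKit limit at 50%, 29 without the lowest 10%, 1 at 5% mitochondrial UMIs, 17 as a mean over cells, 25 thinned and 61 at matched depth.

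Gene lists with a summed level (CPM plus 10) 2-fold higher than in cKit-high cells, 5 as reported, were 8 with the CD71 limit at 50%, 2 at matched depth, 2 without the cells set aside and 0 with both. Lists lower, 0 as reported, were 1 with the cKit limit at 50%, 2 without the lowest 10%, 2 as a mean over cells, 1 thinned, 1 with 1 CPM added, 3 at matched depth, 1 without the cells set aside and 3 with both. Sub-clusters numbered 4 at resolution 0.4 against 7.

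Signs turned for few genes, in log2. Without the lowest 10%, Cdkn1c was at -0.35 and Mest at -0.13 against cKit-high cells, and Hbb-y was at -0.72, Cdkn1c at -0.12 and Hba-x at -0.91 against CD71-higher cells. At matched depth Hbb-y was at -0.032 and Hba-x at -0.23 against cKit-high cells, and at -3.40 and -3.39 against CD71-higher cells. Without the cells set aside Hba-x was at -0.17 against CD71-higher cells. With both, Hba-x was at -0.21 against cKit-high cells, and Hbb-y at -0.17 and Hba-x at -0.56 against CD71-higher cells. The cause of these changes was not tested beyond the cells counted in the text.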
